A study of Homo sapiens with 10 samples.

Results

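The 77 genes described here encode the nuclear subunits of oxidative phosphorylation, and they were taken by symbol from the 60642 gene rows of a bulk RNA-seq table of prostate cancer cell lines. The symbols gave 38 genes of complex I (with NDUFAB1, the acyl carrier protein, and NDUFA4, which today is counted with complex IV), 4 of complex II, 9 of complex III, 10 of complex IV and 16 of ATP synthase. The rule used symbols and no expression value. All 77 reached 1 TPM in all 10 samples, the lowest single value being 7.25 TPM and the highest 1240 TPM. TPM is a transcript level scaled to the total of the sample and corrected for transcript length, so that levels of different genes can be set side by side.

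The samples came from 5 established human prostate cancer lines, sequenced untreated with 2 biological repeats of each: LNCAP (clone FGC), DUCAP, VCAP, DU145 and PC3. All were grown in phenol-red free RPMI with fetal bovine serum and harvested while growing exponentially, and polyA RNA was sequenced with strand information. DUCAP and VCAP were derived from metastases of the same patient and do not stand for separate tumours. There was no normal prostate sample and no treatment, so that a line can only be compared with the other lines. The epithelial keratins KRT8 and KRT18 were present in every sample (98.95 to 1077 TPM). The other epithelial markers were lowest in PC3, where CDH1, which encodes E-cadherin, was at 3.78 and 9.74 TPM against 46.3 to 375 TPM elsewhere, and EPCAM at 23.4 and 25 TPM against 81.9 to 264 TPM. PTPRC of leukocytes and PECAM1 of endothelium reached at most 0.43 TPM. COL1A1, a collagen gene of fibroblasts, was at 31.5 and 38.0 TPM in PC3 and at or below 6.66 TPM elsewhere. The prostate markers KLK3, HOXB13, FOLH1 and TMPRSS2 were each at or below 0.52 TPM in DU145, whose prostate label they therefore do not show. ALB, a hepatocyte gene, lay at 14.3 to 27.8 TPM in DUCAP and VCAP and at or below 0.85 TPM elsewhere. The part of these markers in the results was not tested.

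Oxidative phosphorylation takes place at the inner mitochondrial membrane. Complexes I and II pass electrons from NADH and succinate to ubiquinone, complex III passes them to cytochrome c and complex IV to oxygen, while complexes I, III and IV pump protons whose return through ATP synthase drives the making of ATP. Most subunits are encoded in the nucleus and imported. Mitochondrial DNA encodes 7 subunits of complex I, 1 of complex III, 3 of complex IV and 2 of ATP synthase, whereas complex II is wholly nuclear. Normal prostate epithelium is known for exporting citrate instead of oxidising it, a trait that prostate cancer cells lose.

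Nuclear respiratory factor 1 (NRF1), the ETS factor GABP and YY1 are the regulators most often tied to these promoters. Their core letters were searched on both strands in the RefSeq promoter windows (250 bases before and 50 after each gene start, GRCh38.p14) of the 63 members that had one. The NRF1 letters GCGCANGCG occurred in 21 of the 63 windows (33.3%), against 8.05% of all 27305 windows and 14.3% of those of tested genes. The ETS letters CCGGAAG occurred in 20 members (31.7%, against 10.7% and 18.4%), and the YY1 letters AAGATGG in 16 (25.4%, against 6.06% and 7.29%). With the bases before the start alone, the NRF1 share was 30.2%, against 7.02% of all windows and 12.6% of those of tested genes. The ETS share was 27.0% (against 8.82% and 15.2%), and that for YY1 was 6.35% (against 3.77% and 3.52%). Of the members with a window, 21 held none of the 3 motifs, and SDHD, UQCR11, COX6A1, ATP5ME and ATP5PF held both NRF1 and ETS. A match is a run of letters and not a shown binding site.

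Stretches upstream of the start of 5 genes are printed because these genes recur in the results: SDHA for its repeated motif, NDUFB4 for the largest excess in LNCAP, NDUFS7 for the widest range between lines, ATP5PF for carrying all 3 motifs, and ATP5MC2 for its place among the subunit c genes. Capitals mark the NRF1 letters on either strand and, in ATP5PF alone, also the YY1 and ETS letters that follow them. They lie at chr5:218142-218319 (+) for SDHA, chr3:120596165-120596293 (+) for NDUFB4, chr19:1383821-1383853 (+) for NDUFS7, chr21:25735066-25735186 (-) for ATP5PF and chr12:53676104-53676136 (-) for ATP5MC2. For ATP5PF and ATP5MC2 the start used is internal, and the stretch lies inside the RefSeq gene span. These spans are chr21:25724500-25735653 for ATP5PF and chr12:53665170-53681423 for ATP5MC2.
SDHA: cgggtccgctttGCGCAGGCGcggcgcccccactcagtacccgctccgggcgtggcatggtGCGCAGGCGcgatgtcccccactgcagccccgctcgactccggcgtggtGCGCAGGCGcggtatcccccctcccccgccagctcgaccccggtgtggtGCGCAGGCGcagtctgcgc
NDUFB4: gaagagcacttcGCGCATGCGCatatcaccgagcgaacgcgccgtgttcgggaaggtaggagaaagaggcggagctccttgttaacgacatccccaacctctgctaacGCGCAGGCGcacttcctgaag
NDUFS7: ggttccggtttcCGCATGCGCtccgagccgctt
ATP5PF: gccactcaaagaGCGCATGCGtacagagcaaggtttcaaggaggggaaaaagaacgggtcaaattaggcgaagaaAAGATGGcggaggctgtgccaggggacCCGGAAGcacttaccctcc
ATP5MC2: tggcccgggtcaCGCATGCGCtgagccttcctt
SDHA, the flavoprotein that oxidises succinate, held 4 NRF1 matches whose first letters lay 49 bases apart. NDUFB4 held 3 matches, the first 2 of them on opposite strands of the same palindrome. After rescaling as described below, the 21 members with the NRF1 letters had a median log2 line difference of 0.33 in LNCAP, and the 42 without had 0.73. In VCAP the medians were -0.34 and -0.41. For the YY1 letters the LNCAP medians were 0.34 with and 0.60 without, and for the ETS letters 0.59 and 0.60. A relation between motifs and line differences was not tested.

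Together the 77 genes made up 1.25% to 2.42% of a sample's summed TPM. Their summed level was highest in LNCAP, at 23804 and 22482 TPM in repeats 1 and 2, followed by PC3 at 20419 and 20321 TPM. DU145 gave 13487 and 18014 TPM, DUCAP 13670 and 15617 TPM, and VCAP 12388 and 13015 TPM. The repeats of LNCAP and those of PC3 lay above all samples of the other 3 lines, whereas the ranges of DU145 and DUCAP overlapped. In bulk RNA these are shares of all transcripts, and less transcript per cell cannot be told apart from more of everything else or from fewer expressing cells.

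The share taken by the mitochondrial genome differed greatly between the lines, and TPM is a share of a fixed total. The 37 mitochondrial rows held 35.5% and 32.1% of summed TPM in DUCAP and 36.0% and 34.5% in VCAP, against 19.7% and 18.9% in LNCAP, 22.5% and 15.3% in DU145 and 12.7% and 14.98% in PC3. All values were therefore also rescaled to a total of 1000000 without the mitochondrial genes. On that scale the summed level was 30139 and 28125 TPM in LNCAP, 23797 and 24290 TPM in PC3, 21395 and 23206 TPM in DUCAP, 19508 and 20080 TPM in VCAP, and 17640 and 21625 TPM in DU145. LNCAP remained above every other sample, PC3 exceeded DUCAP by a smaller margin, and VCAP lay inside the range of DU145. The mean of the highest line was 1.82 times that of the lowest on the deposited scale and 1.48 times on the rescaled one.

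**Figure D1:**
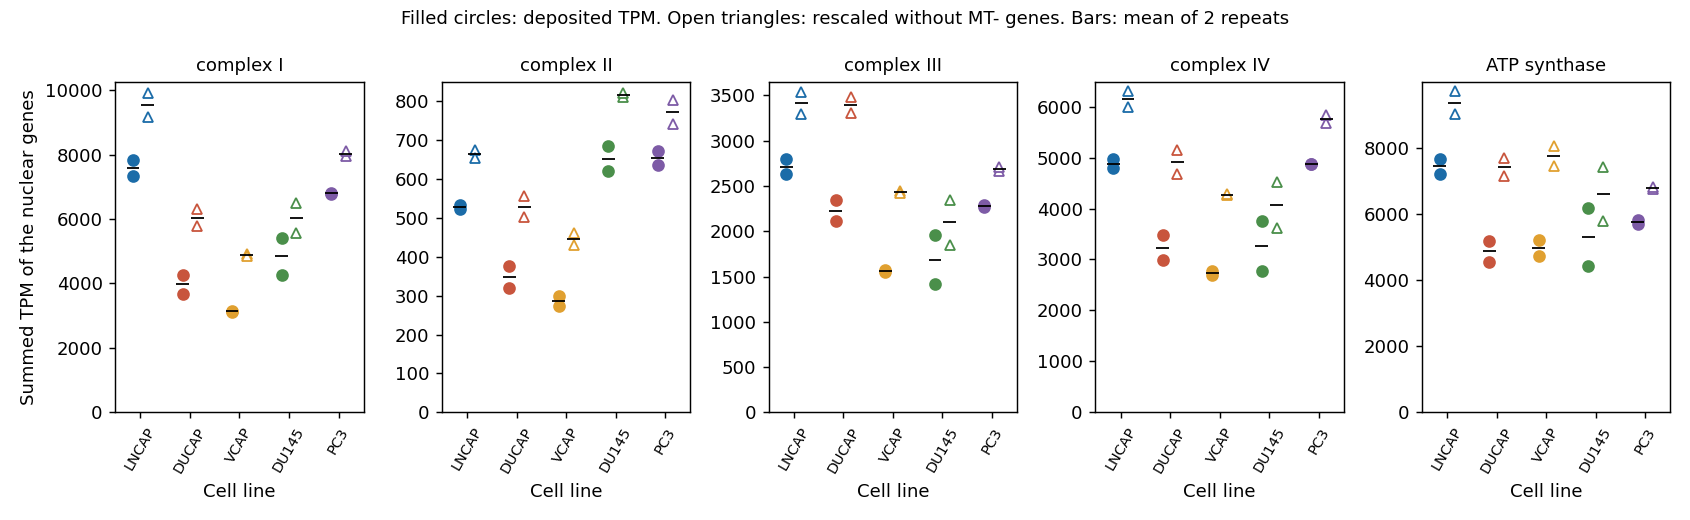
Summed TPM of the nuclear genes of each complex (y axis) in the 5 lines (x axis), with 1 symbol per repeat, filled for deposited TPM and open after rescaling without mitochondrial genes, and a bar at the mean of 2 repeats. Complex II stands highest in DU145 and PC3, while complexes I and IV and ATP synthase stand highest in LNCAP on the rescaled scale.

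Levels differed between the complexes. The median member of complex IV had a mean of 343 TPM over the 10 samples, that of ATP synthase 296 TPM, of complex III 187 TPM, of complex II 129 TPM and of complex I 115 TPM. The 3 most abundant members were ATP5F1B, the catalytic beta subunit of ATP synthase (859 TPM), ATP5MF, a small membrane subunit of ATP synthase (822 TPM), and COX6A1, the widely expressed form of a complex IV subunit (680 TPM). The 3 least abundant were NDUFV3 (32.5 TPM) and NDUFB6 (34.6 TPM), both accessory subunits of complex I, and UQCRFS1, the Rieske iron-sulfur protein of complex III (41.5 TPM). The highest line exceeded the lowest 2-fold or more in 56 of the 77 members, and 56 did so after rescaling. The same share was not counted over all tested genes, so these numbers do not set the members apart from other genes.

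Almost all members differed between lines, as did almost all genes. By limma's F test on log2(TPM + 1), adjusted by Benjamini-Hochberg over all 17520 tested genes, 71 of 77 members passed an adjusted p of 0.05, and the share among all tested genes was 90.8%. After rescaling, 71 passed again, against 90.1% of 17505 genes. Every line contrast below comes from this fit and sets a line against the mean of the other 4, so the contrasts share all samples. The p-values measure only the spread between repeats of these lines. Among the 14 members fixed for description, COX4I1 of complex IV gave the smallest adjusted p, 1.30e-06.

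In LNCAP the nuclear genes were mostly higher than in the other lines. Of 77 members, 54 were higher and 2 lower, against 38.2% and 24.2% of all tested genes, and the median member differed by 0.71 on the log2 scale, against 0.18 for all genes. After rescaling, 51 were higher and 3 lower (34.5% and 27.0% of all genes), with medians of 0.60 and 0.09. On the deposited scale both LNCAP repeats lay above all 8 other samples for 32 members, against 19.6% of tested genes. They lay below them for 0, against 6.96%. After rescaling the numbers were 33 above and 1 below, against 3200 and 1486 of 17505 tested genes. By complex, on the deposited scale 29 of 38 members of complex I were higher. So were 6 of 9 of complex III, 7 of 10 of complex IV, 11 of 16 of ATP synthase and 1 of 4 of complex II. After rescaling, 26 of complex I were higher, and the numbers of the other complexes were the same. With median-ratio scaling 42 members were higher and 8 lower, and the medians were 0.42 for the members and -0.06 for all genes.

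NDUFB4, an accessory subunit in the membrane arm of complex I, had the largest difference in LNCAP. Its level was 690 and 640 TPM there, 260 and 244 TPM in PC3, 180 and 220 TPM in DUCAP, 162 and 168 TPM in VCAP, and 103 and 126 TPM in DU145. LNCAP stood apart from all 8 other samples, and the 2 DU145 samples were the lowest. The log2 difference in LNCAP was 1.92 ± 0.11 (SE, n = 2 against 8; limma adjusted p = 3.58e-06). Rows named as NDUFB4 pseudogenes held 2.58% to 7.36% of the summed level of the gene and those rows.

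ATP5F1D, the delta subunit of the ATP synthase stalk, was next, at 332 and 315 TPM in LNCAP and 40.3 to 160 TPM elsewhere. Its log2 difference was 1.73 ± 0.21 (limma adjusted p = 0.000156). Its lowest value was in VCAP, where the repeats gave 78.9 and 40.3 TPM, the widest gap of any member between VCAP repeats.

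The 2 members lower in LNCAP on both scales were SDHB and UQCRB. SDHB, the iron-sulfur subunit of complex II, was at 108 and 96.8 TPM in LNCAP, overlapping VCAP (100.4 and 110.5 TPM), and at 114 to 184 TPM elsewhere. Its difference of -0.40 ± 0.13 (limma adjusted p = 0.0237) was lost without LNCAP replicate 1 or 2 (adjusted p = 0.0675 and 0.185). UQCRB, which binds ubiquinone in complex III, was at 353 and 382 TPM in LNCAP and differed by -0.29 ± 0.09 (adjusted p = 0.0259), a call likewise lost without either LNCAP repeat (adjusted p = 0.188 and 0.0682).

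In PC3, 38 of 77 members were higher and 7 lower on the deposited scale, against 43.2% and 24.7% of all tested genes, with a member median of 0.44 against 0.26 for all genes. After rescaling, 33 were higher and 14 lower (36.4% and 29.4%), with medians of 0.20 and 0.09. On the deposited scale both PC3 repeats exceeded all other samples for 18 members, against 21.4% of tested genes. They lay below all others for 1 member, against 8.89%. After rescaling they exceeded them for 13 members, against 3136 of 17505 tested genes, and lay below for 10, against 2108. The members' share of higher calls was thus near the background, and their share of lower calls was below it. With quantile normalization, 28 were higher and 25 lower, the median member lay at -0.06, and that of all genes at -0.11.

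The members with the largest differences in PC3 were accessory subunits of complex I. NDUFB7 was at 321 and 316 TPM in PC3, 190 and 187 TPM in LNCAP and 33.8 to 97.6 TPM in the other 3 lines. Its log2 difference was 1.86 ± 0.18 (limma adjusted p = 3.40e-05). NDUFA11, at 439 and 418 TPM in PC3, differed by 1.61 ± 0.15 (adjusted p = 2.79e-05).

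Both lower members named in PC3 belong to ATP synthase. ATP5MC2, at 281 and 283 TPM in PC3 and 383 to 562 TPM in the other lines, differed by -0.74 ± 0.09 (limma adjusted p = 0.000112), and both PC3 repeats were below all other samples. ATP5MD, a small membrane subunit, was at 202 and 187 TPM in PC3 against 195 and 213 TPM in DUCAP, and its difference of -0.52 ± 0.14 (adjusted p = 0.00972) was lost without PC3 replicate 2 (adjusted p = 0.0907).

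In VCAP the members were mostly lower. Of 77, 3 were higher and 53 lower, against 17.3% and 46.6% of all tested genes, with a member median of -0.64 against -0.36. After rescaling, 6 were higher and 44 lower (24.0% and 37.1%), with medians of -0.38 and -0.19. On the deposited scale both VCAP repeats lay below all other samples for 27 members, against 8.44% of tested genes. They lay above them for 2, against 7.22%. On the rescaled values the numbers were 21 below and 4 above, against 1170 and 1881 of 17505 tested genes. After rescaling, 28 of 38 members of complex I, 3 of 4 of complex II, 5 of 9 of complex III and 4 of 10 of complex IV were lower, and 4 of 16 of ATP synthase. With median-ratio scaling 9 members were higher and 39 lower, and the medians were -0.27 for the members and -0.09 for all genes.

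NDUFS7, a core subunit of complex I that carries the iron-sulfur cluster next to ubiquinone, had the widest range of line means of the 77. It was at 13.1 and 7.25 TPM in VCAP and 14.2 and 17.3 TPM in DUCAP, against 86.1 and 79.3 TPM in LNCAP, 77.8 and 89.4 TPM in DU145, and 62.2 and 66.9 TPM in PC3. The 4 samples of VCAP and DUCAP did not overlap the other 6. The log2 difference was -2.29 ± 0.19 in VCAP (limma adjusted p = 2.48e-05), -1.5 ± 0.19 in DUCAP (0.000199 adjusted) and 1.42 ± 0.19 in DU145 (0.000267 adjusted). NDUFA11 was next in VCAP, at 71.5 and 47.5 TPM, with a difference of -1.96 ± 0.15 (adjusted p = 1.61e-05).

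ATP5MF and ATP5PF, both of the membrane and stalk parts of ATP synthase, went the other way. ATP5MF was at 1024 and 1171 TPM in VCAP and 481 to 862 TPM elsewhere, and ATP5PF at 339 and 404 TPM against 209.5 to 335 TPM. Both VCAP repeats were above all other samples for each. The differences were 0.56 ± 0.15 and 0.45 ± 0.12 (limma adjusted p = 0.00998 and 0.0122), and both calls were lost without VCAP replicate 2 (adjusted p = 0.0991 and 0.129).

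The VCAP repeats differed with base composition. Across the 76 members with a transcript GC content, the log2 gap between repeats (2 minus 1) and GC had r = -0.70, and across 13405 tested genes r = -0.58, where the points share 2 libraries. In the other 4 lines r across members lay between -0.06 and 0.09. Across all tested genes it was -0.22 in DU145, -0.18 in DUCAP, 0.02 in LNCAP and 0.05 in PC3. The members with the lowest GC were 0.19 higher in repeat 2 (median of 26), and those with the highest GC had a median gap of -0.12. NDUFS7, NDUFA11, NDUFB7 and ATP5F1D, all lower in VCAP and lower still in repeat 2, have transcripts of 66.9%, 62.7%, 64.9% and 68.7% GC, against a median of 49.1% over the members. Without VCAP replicate 2 or any other single sample, NDUFS7 in VCAP stayed between -2.68 and -1.90. The VCAP line difference itself had r = -0.31 with GC across the 76 members after rescaling, with medians of -0.24 for the members of lowest GC and -0.64 for those of highest GC. In the other 4 lines that r lay between -0.02 and 0.14. Across 13392 tested genes it was -0.14 in both VCAP and DUCAP, and 0.04 (LNCAP) to 0.10 (PC3) in the remaining lines. Beyond these values, the part of GC in the VCAP differences was not tested.

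DUCAP gave the result that depended most on the scale. On the deposited scale 6 members were higher and 39 lower, against 11.1% and 57.7% of all tested genes, and the median member lay at -0.37 against -0.54 for all genes. After rescaling, 14 were higher and 31 lower (14.7% and 48.9%), with medians of -0.15 and -0.43. With median-ratio scaling 33 were higher and 13 lower, with medians of 0.21 and -0.16, and with quantile normalization 27 and 14, with medians of 0.15 and -0.02. The members' median was above that of all genes on each of these 4 scales, but its sign changed. Rescaling without mitochondrial genes left other large shares unequal. The 83 genes of cytosolic ribosomal proteins then summed to 351357 and 319262 TPM in DUCAP and 279001 and 272826 TPM in VCAP. In the other lines they summed to between 141464 (PC3) and 236485 TPM (LNCAP). On the deposited scale both DUCAP repeats lay above all other samples for 4 members, against 2.83% of tested genes. They lay below for 5, against 19.1%. After rescaling the numbers were 5 above and 5 below, against 659 and 2950 of 17505 tested genes.

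Single members in DUCAP departed in both directions. UQCRB was at 657 and 699 TPM there, above VCAP (480 and 529 TPM), PC3 (486 and 490.5 TPM), LNCAP and DU145 (227 and 259 TPM). Its difference of 0.81 ± 0.09 (limma adjusted p = 0.000116) rose to 1.04 after rescaling. COX8A, the smallest subunit of complex IV, was at 834 and 1007 TPM against 358 to 725 TPM elsewhere, and differed by 0.63 ± 0.19 (adjusted p = 0.0174), a call lost without DUCAP replicate 2 (adjusted p = 0.15).

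NDUFA4 showed the largest deficit in DUCAP. It was at 40.4 and 52.4 TPM in DUCAP and 63.3 and 68.4 TPM in VCAP, against 249 and 233 TPM in LNCAP, 211 and 206 TPM in PC3 and 87.8 and 147 TPM in DU145. Its difference was -1.58 ± 0.18 (limma adjusted p = 0.000125). NDUFV1, the flavoprotein of complex I that takes electrons from NADH, was instead highest in DUCAP (268 and 296 TPM) and VCAP (267 and 211 TPM), at 149 to 199 TPM elsewhere, with a DUCAP difference of 0.59 ± 0.12 (adjusted p = 0.00239).

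In DU145 the members were split. On the deposited scale 18 were higher and 22 lower, against 40.7% and 22.3% of all tested genes, with a member median of -0.01 against 0.23. After rescaling, 16 were higher and 29 lower (36.8% and 25.4%), with medians of -0.14 and 0.15. With median-ratio scaling 16 were higher and 37 lower, and the medians were -0.29 for the members and 0.02 for all genes. On the deposited scale both DU145 repeats lay above all other samples for 5 members, against 16.4% of tested genes. They lay below for 4, against 6.39%. After rescaling the numbers were 5 above and 11 below, against 2777 and 1361 of 17505 tested genes.

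NDUFA12, an accessory subunit of complex I, was at 310 and 303 TPM in DU145 and 107 to 179 TPM elsewhere, a difference of 1.09 ± 0.11 (limma adjusted p = 4.80e-05). NDUFS5, another accessory subunit, was at 148 and 194 TPM beside 166 and 202 TPM in VCAP and 474 to 609 TPM in LNCAP and PC3, and differed by -1.05 ± 0.13 (adjusted p = 0.00017). NDUFB4 differed by -1.25 ± 0.11 (adjusted p = 2.93e-05).

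The DU145 repeats differed more than those of the other lines. On the deposited scale the median member was 0.38 higher in repeat 2 (log2), against 0 for all tested genes. Of 77 members, 70 were higher, and ATP5MC1 and UQCRQ differed 2-fold or more. After rescaling, the medians were 0.26 and -0.09, 63 members were higher, and ATP5MC1 alone differed 2-fold or more. Over all tested genes on the deposited scale, 9.48% differed 2-fold or more between the DU145 repeats, against 0.902% to 2.12% in the other lines. In DUCAP 76 of 77 members were higher in repeat 2 on that scale, by a median of 0.20, against 0.09 for all tested genes. Without DU145 replicate 1 the median member in the DU145 contrast lay at 0.16 and without replicate 2 at -0.18, and its sign thus changed with the library left out.

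**Figure D2:**
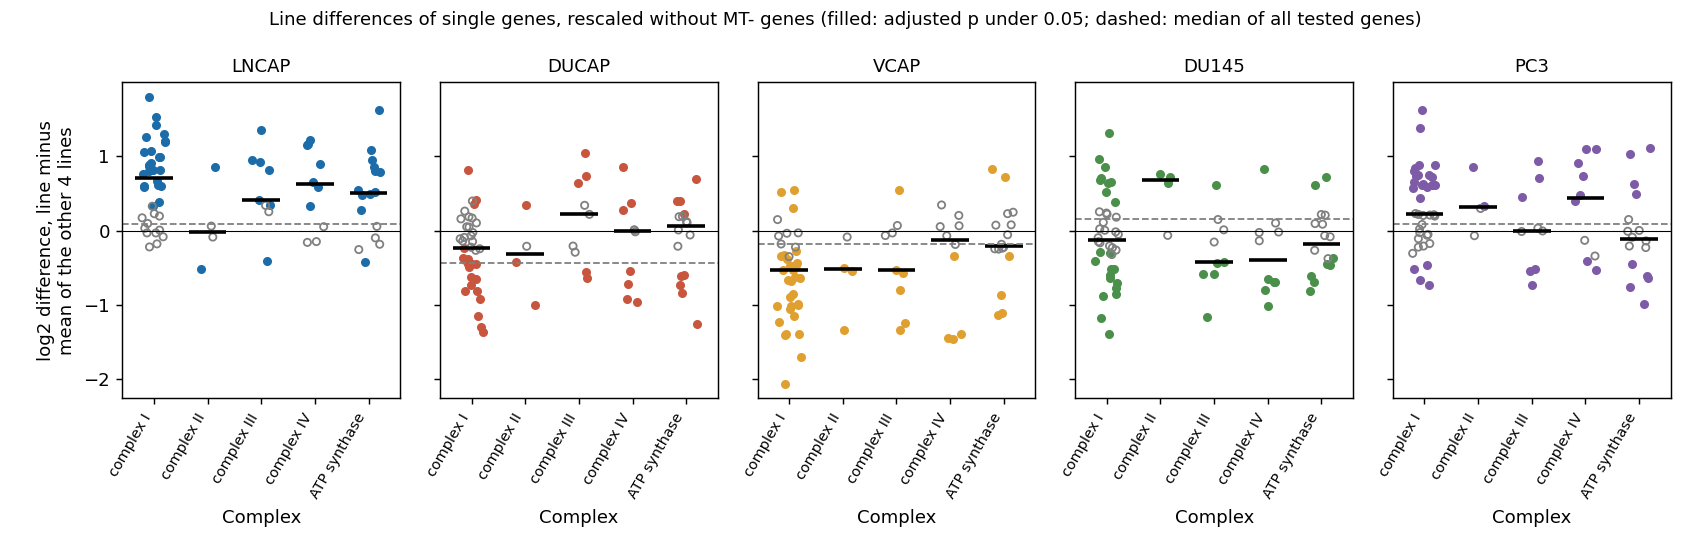
Log2 difference of each gene between a line and the mean of the other 4 lines after rescaling without mitochondrial genes (y axis), by complex (x axis) and line (panels). Filled points have an adjusted p under 0.05, black bars are medians, and the dashed line is the median of all tested genes, 0.09 in LNCAP and -0.43 in DUCAP.

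Complex II, which is also the succinate dehydrogenase of the TCA cycle, was distributed unlike the rest. Its 4 genes took 4.6% and 3.8% of the members' summed TPM in DU145 and 3.12% and 3.3% in PC3, against 2.20% to 2.40% in the other 3 lines. These shares do not depend on the scale. The ratio of the highest to the lowest share was smaller for the other complexes. Complex I took 24.1% to 27.2% in DUCAP and VCAP against 30.1% to 33.4% elsewhere. Complex III took 15.4% and 15.02% in DUCAP, above all other samples. ATP synthase took 38.2% and 40.2% in VCAP and 28.4% and 28.1% in PC3. Such sums over chosen genes were not tested.

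SDHA was at 198 and 193 TPM in DU145, above all other samples (72.9 to 179 TPM), with a log2 difference of 0.89 ± 0.12 (limma adjusted p = 0.000342). Its pseudogene rows held 9.69% to 16.3% of the summed level, the largest such share of any member. SDHD, a membrane anchor, was at 133 and 127 TPM in DU145 and 49.98 to 92.2 TPM elsewhere (0.85 ± 0.09, adjusted p = 7.80e-05). SDHC, the other anchor, was at 48.8 to 72.4 TPM in DUCAP and VCAP and at 174 to 236 TPM in the other 3 lines, without overlap. SDHB lay between 96.8 and 184 TPM in all samples. Its mean was highest in PC3 on the deposited scale (184 and 167 TPM) and in DUCAP after rescaling (205 and 213 TPM, beside 214 and 200.1 TPM in PC3). SDHC and SDHD were named after their values were seen.

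In complex III, the core proteins did not share 1 order. UQCRC1 was highest in PC3 (363 and 349 TPM, log2 difference 1.17 ± 0.12, limma adjusted p = 5.83e-05), and so was CYC1, which carries cytochrome c1 (300 and 286 TPM, 0.95 ± 0.18, adjusted p = 0.00196). UQCRFS1 was highest in LNCAP (69.6 and 64.1 TPM, 0.93 ± 0.16, adjusted p = 0.00105) and at 27.5 to 51.7 TPM elsewhere. UQCRB, as described, was highest in DUCAP.

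In complex IV, COX4I1, a regulatory subunit found in most tissues, was at 599 and 595 TPM in LNCAP, 469 and 539 TPM in DU145, 422 and 415 TPM in PC3, 145.5 and 167 TPM in DUCAP and 108 and 119 TPM in VCAP. The 5 lines did not overlap. COX5A was highest in LNCAP (392 and 346 TPM) and at 140 to 270 TPM elsewhere (1.01 ± 0.15, limma adjusted p = 0.000565). COX6A1 was highest in PC3 (1096 and 1117 TPM against 399 to 716 TPM; 0.97 ± 0.13, adjusted p = 0.000246). Genes of tissue-specific or hypoxia-induced forms of these subunits were also measured. COX4I2, COX6A2, COX7A1 and COX8C were each at or below 0.25 TPM in all samples. COX6B2, known from testis, was at 5.10 and 3.50 TPM in DU145 and at or below 0.14 TPM elsewhere, COX7B2 at 3.61 and 1.48 TPM in LNCAP and 5.53 and 5.66 TPM in PC3 but listed at 0 in the other 3 lines, and NDUFA4L2, induced by hypoxia, at 5.12 and 36.3 TPM in the LNCAP repeats and at most 3.02 TPM elsewhere.

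In ATP synthase the catalytic subunits were highest in LNCAP. ATP5F1A, the alpha subunit, was at 671 and 656 TPM there and 260 to 445 TPM elsewhere (0.97 ± 0.12, limma adjusted p = 0.000205). ATP5F1B was at 1240 and 1152 TPM and 656 to 923 TPM elsewhere (0.64 ± 0.14, adjusted p = 0.00393). Its F test (adjusted p = 0.0167) was lost when any 1 of the 4 LNCAP and PC3 samples was left out (adjusted p = 0.0553 to 0.133).

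**Figure D3:**
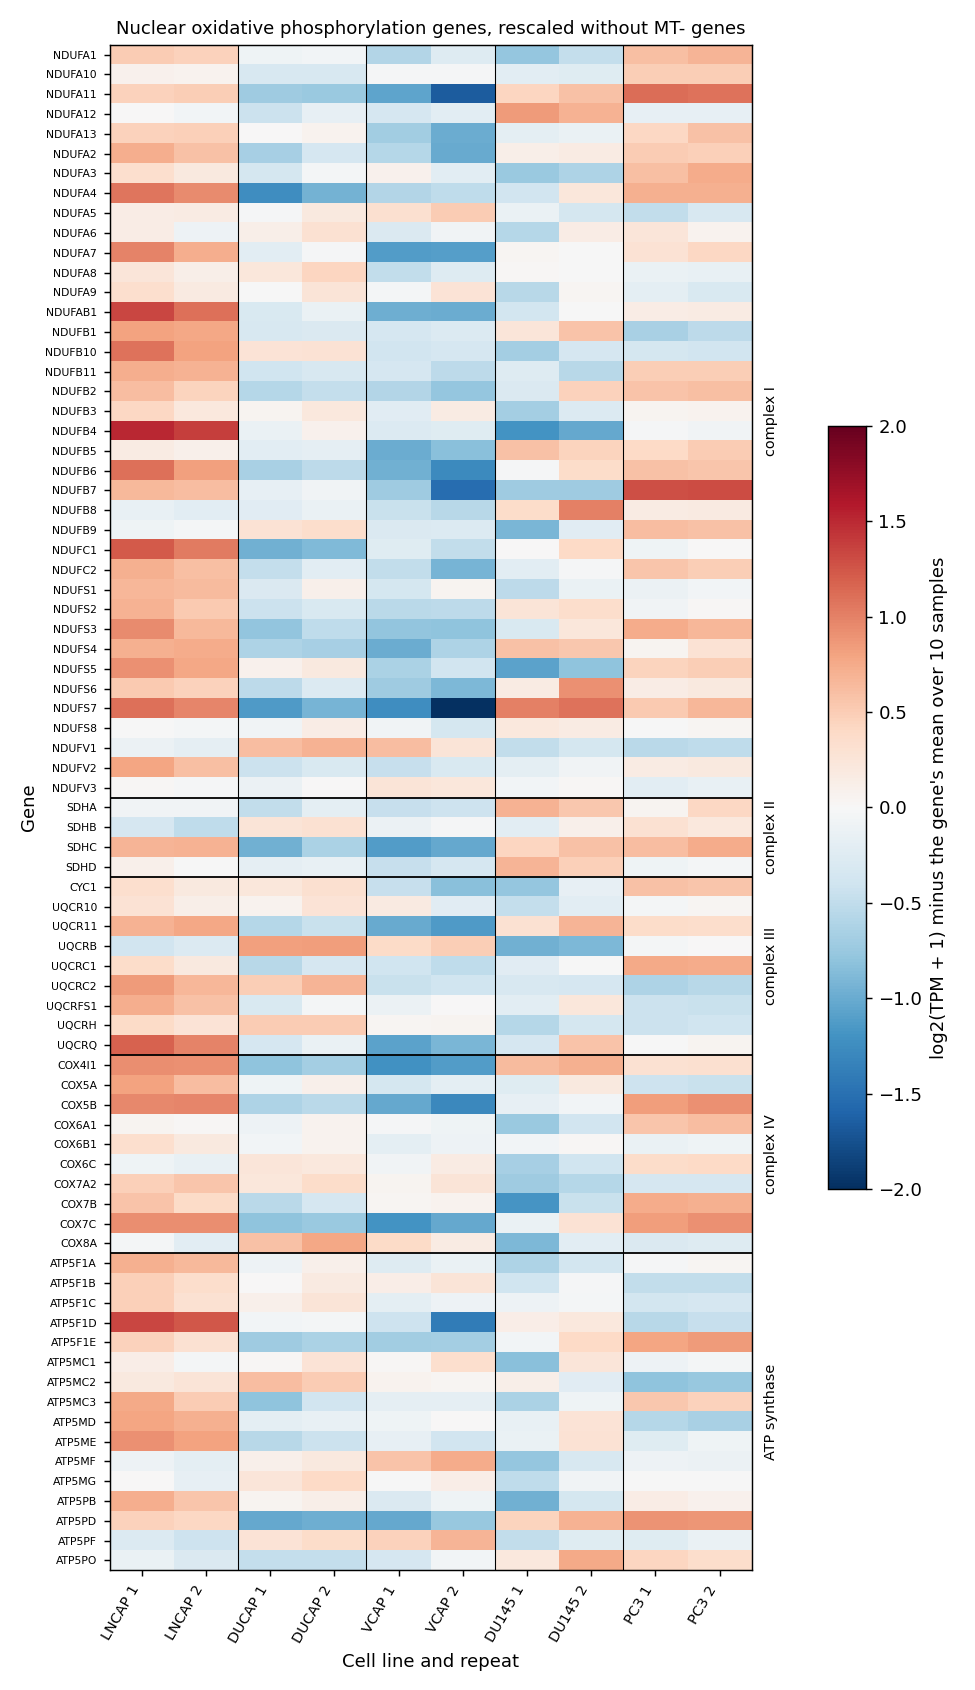
Heat map of the 77 genes (rows, grouped by complex) in the 10 samples (columns), coloured by log2(TPM + 1) after rescaling without mitochondrial genes, minus the gene's mean over the samples. LNCAP columns are mostly red, VCAP columns mostly blue in complex I, and NDUFV1, UQCRB, COX8A and ATP5MF run against their neighbours in DUCAP or VCAP.

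The 3 genes ATP5MC1, ATP5MC2 and ATP5MC3 encode the same mature subunit c, the proton-carrying ring of ATP synthase, and differ in their import sequences. Their summed level was 1215 and 1154 TPM in LNCAP, 931 and 1026 TPM in DUCAP, 797 and 877 TPM in VCAP, 777 and 1026 TPM in DU145, and 926 and 911 TPM in PC3. ATP5MC3 gave 9.33% and 11.98% of the sum in DUCAP, 15.05% to 18.2% in VCAP and DU145, 26.2% and 23.3% in LNCAP, and 31.9% and 30.2% in PC3. ATP5MC2 gave 60.3% and 53.4% in DUCAP and 30.3% and 31.1% in PC3. In DU145 the repeats disagreed, ATP5MC1 giving 23.9% in repeat 1 and 41.7% in repeat 2, and ATP5MC2 61.1% and 40.0%. By the F test ATP5MC2 and ATP5MC3 differed between lines (limma adjusted p = 0.000231 and 0.00103), whereas ATP5MC1 gave adjusted p = 0.852, and 0.0165 without DU145 replicate 2.

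**Figure D4:**
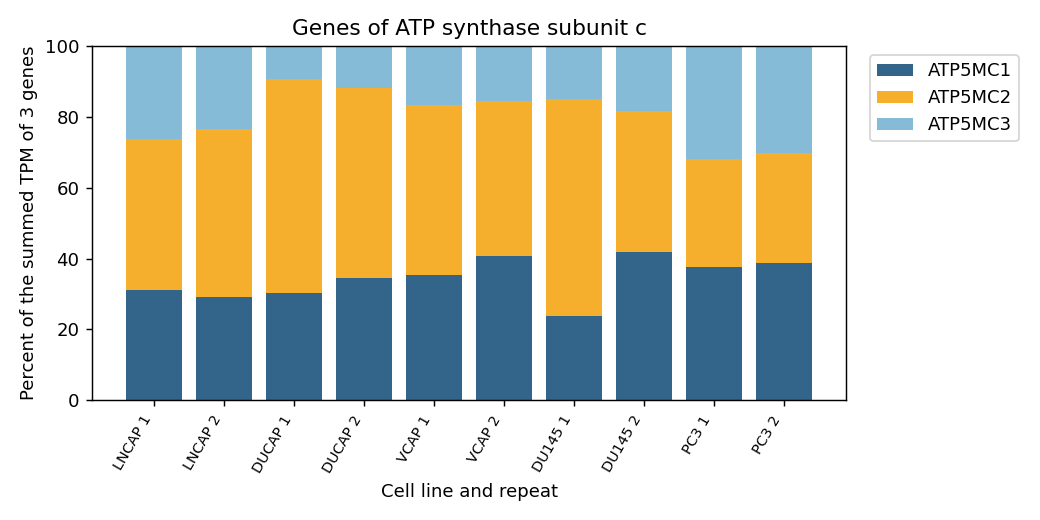
Share of each of the 3 subunit c genes in their summed TPM (y axis, percent) in each sample (x axis). ATP5MC3 takes 9.33% and 11.98% in DUCAP and 31.9% and 30.2% in PC3, and the DU145 repeats differ in their ATP5MC1 and ATP5MC2 shares.

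The members with the smallest range of line means were NDUFV3, ATP5MC1 and ATP5MG. NDUFV3 lay at 25.7 to 37.1 TPM and ATP5MG, a membrane subunit of ATP synthase, at 162 to 267 TPM over the 10 samples. Their F tests gave limma adjusted p = 0.18 and 0.275 on the deposited scale and 0.0541 and 0.0465 after rescaling. NDUFS1, the largest subunit of complex I, was at 93.2 and 92.9 TPM in LNCAP and 36.9 to 59.6 TPM elsewhere (0.93 ± 0.18, adjusted p = 0.00224), and its F test (adjusted p = 0.00859) was lost without either LNCAP repeat (adjusted p = 0.0687 and 0.0678).

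The transcripts of the mitochondrial genome did not follow those of the nuclear genes. For complexes I, III and IV and ATP synthase, the sum over mitochondrially encoded subunits was divided by the sum over nuclear ones, a ratio that does not depend on the scale. Over all members the ratio was 7.21 and 7.22 in LNCAP, 5.83 and 6.995 in PC3, 15.8 and 8.02 in DU145, 25.4 and 20.1 in DUCAP, and 28.1 and 25.6 in VCAP. The 4 samples of DUCAP and VCAP lay above the other 6. In complex I the ratio was 27.3 and 21.1 in DUCAP and 35.8 and 33.8 in VCAP against 6.36 to 17.0 elsewhere, and in ATP synthase 21.0 to 26.6 in these lines against 4.61 to 11.1. All 13 mitochondrial protein genes passed the F test, against 90.8% of all tested genes. Among them MT-ATP8 was higher in DUCAP by 1.48 and in VCAP by 1.53 on the log2 scale and lower in PC3 by -1.37. MT-ND1, MT-CYB and MT-CO2 were higher in VCAP by 1.39, 0.85 and 0.71. MT-RNR1, the small ribosomal RNA, was instead higher in LNCAP by 2.53 (limma adjusted p = 8.89e-07).

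**Figure D5:**
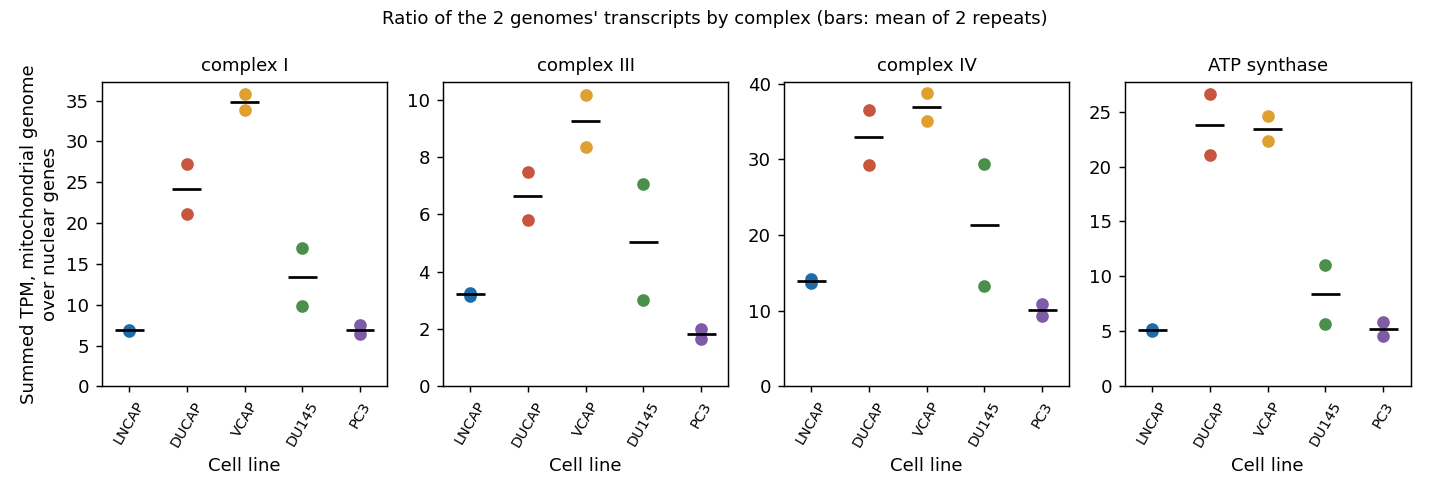
Ratio of the summed TPM of mitochondrially encoded to nuclear subunits (y axis) by line (x axis) for the 4 complexes with subunits from both genomes, with 1 point per repeat and a bar at the mean. DUCAP and VCAP lie highest in complex I (21.1 to 35.8) and ATP synthase (21.0 to 26.6), and the DU145 repeats are far apart.

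By position, the 10 members on chromosome 19 had a median log2 difference of -1.23 in VCAP after rescaling, against -0.19 for the 1074 tested genes there. They include NDUFS7, NDUFA11, NDUFB7 and ATP5F1D, the GC-rich genes that differed between the VCAP repeats, and the part of GC in this median was not tested. In LNCAP their median was 0.81 against 0.22. The members of chromosome 8 (NDUFB9, CYC1, UQCRB and COX6C) had medians of 0.37 in DUCAP and 0.59 in PC3, against -0.34 and 0.20 for all tested genes there, and -0.68 in DU145 against 0.14. Positions were known for 76 members, on 22 chromosomes.

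Assembly factors of the complexes were counted as well. On the deposited scale 9 of 17 assembly factors of complex I, 2 of 4 of complex II, 4 of 6 of complex III, 15 of 25 of complex IV and 4 of 4 of ATP synthase were higher in LNCAP, and 1, 0, 1, 1 and 0 lower, against 38.2% and 24.2% of all tested genes. In VCAP 10, 2, 3, 15 and 3 of them were lower, against 46.6% of all tested genes. COX16, a complex IV assembly factor, differed by 2.92 in PC3 (limma adjusted p = 2.83e-07) and by -1.85 in DUCAP. TIMMDC1 of complex I assembly differed by 1.36 in PC3 and SDHAF2, which inserts the flavin of SDHA, by 1.31. ATPAF1, a chaperone for ATP synthase, was higher in LNCAP by 1.17 and lower in DU145 by -1.53, and UQCC1 of complex III assembly was lower in LNCAP by -1.66. After rescaling, 7, 1, 3, 13 and 2 assembly factors of the complexes in the same order were lower in VCAP, against 37.1% of all tested genes. In LNCAP 9, 2, 4, 15 and 4 were then higher and 1, 0, 1, 2 and 0 lower, against 34.5% and 27.0%.

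The 77 genes of mitochondrial ribosomal proteins were counted in the same way on the deposited scale. In LNCAP 51 were higher and 2 lower (38.2% and 24.2% of all tested genes), and in VCAP 2 and 53 (17.3% and 46.6%). In DUCAP 4 were higher and 48 lower (11.1% and 57.7%), in PC3 40 and 10 (43.2% and 24.7%), and in DU145 31 and 10 (40.7% and 22.3%). The median in DU145 was 0.34, where the members' median was -0.01 and that of all genes 0.23. MRPL55 spanned the lines most widely by F, from -3.11 in VCAP to 2.91 in PC3. After rescaling, 50 of these genes were higher and 5 lower in LNCAP (34.5% and 27.0% of all tested genes), and 7 and 42 in VCAP (24.0% and 37.1%). In DUCAP the numbers were then 8 and 41 (14.7% and 48.9%), in PC3 32 and 18 (36.4% and 29.4%), and in DU145 30 and 16 (36.8% and 25.4%). On the deposited scale the TCA cycle had 9 of 13 genes higher and 0 lower in LNCAP (38.2% and 24.2% of all tested genes). IDH3G, a subunit of isocitrate dehydrogenase, differed by -1.76 in DUCAP and 1.27 in PC3. After rescaling, 8 TCA cycle genes were higher and 2 lower in LNCAP (34.5% and 27.0%). The cytosolic ribosome had 48 of 82 tested genes higher and 11 lower in DUCAP on the deposited scale (11.1% and 57.7% of all genes). In PC3 it had 14 higher and 54 lower on that scale (43.2% and 24.7%). RPL10L of that list differed by 3.62 in LNCAP.

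Of 12 regulators, 11 were tested and 9 passed the F test, against 90.8% of all tested genes. NRF1 lay at 7.46 to 12.7 TPM and its F test gave limma adjusted p = 0.275. GABPA, the DNA-binding part of GABP, was lowest in LNCAP (10.6 and 11.4 TPM, difference -0.63, adjusted p = 0.00338), and its partner GABPB1 gave adjusted p = 0.46 by the F test. ESRRA, an orphan receptor that acts with PGC-1 coactivators, was highest in DUCAP (53.9 and 53.7 TPM, 0.92, adjusted p = 0.000499). PPARGC1A, which encodes PGC-1 alpha, was at or below 0.59 TPM in all samples and was not tested. PPARGC1B was highest in DUCAP (4.28 and 4.84 TPM, 1.11, adjusted p = 0.000137), and PPRC1, of the same family, was lower in PC3 by -0.76 (adjusted p = 0.0167).

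Among the factors of mitochondrial transcription, TFB2M was at 27.9 and 29.9 TPM in LNCAP and 7.75 to 9.95 TPM in DUCAP and VCAP (LNCAP difference 1.10, limma adjusted p = 0.000851). TFB1M, a methyltransferase of the mitochondrial ribosomal RNA, was at 2.49 to 6.18 TPM in DUCAP and VCAP and 9.13 to 21.97 TPM elsewhere. TFAM, which packages mitochondrial DNA, lay at 23.2 to 57.1 TPM and was higher in PC3 by 0.61 (adjusted p = 0.0151). POLRMT, the mitochondrial RNA polymerase, and YY1 were highest in DU145 (41.2 and 54.1 TPM, 73.6 and 91.8 TPM), with differences of 0.79 and 0.94 (adjusted p = 0.00153 and 0.00058).

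Rows named as pseudogenes of a member existed for 46 members, and these rows exceeded 5% of the summed level in at least 1 sample for NDUFA5, NDUFB4, NDUFV2, SDHA, UQCRFS1, COX6A1 and COX7C, whose levels are less certain. After SDHA, the highest shares were 12.9% for COX7C, 11.4% for NDUFA5 and 11.04% for UQCRFS1.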

How the data were processed

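Gene levels were analysed for the 10 untreated samples (5 lines, 2 repeats each). Per the submitters' processing notes, reads were checked with FastQC 0.11.9, trimmed with Trim Galore 0.6.5, aligned with STAR 2.7.2b and quantified with RSEM 1.3.3 on GRCh38, and the authors deposited 1 table of TPM values by gene symbol. The columns summed to 982880 to 991998, not to 1000000. TPM keeps no read depth, so the depth behind each value is unknown. Members and lists were chosen with earlier results of these data known.

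The 17520 genes that reached 1 TPM in 2 samples or more entered a linear model of log2(TPM + 1) with 1 coefficient per line (limma 3.58.1 in R 4.3.3, with a trend in the prior variance). Each line was contrasted with the mean of the other 4, and p-values were adjusted by Benjamini-Hochberg over all tested genes at 0.05. Fold changes on this scale understate those of low genes. The fit was repeated after removing mitochondrial genes and rescaling each column to 1000000. On simulated data for the LNCAP contrast (17520 genes), 84.5% of 200 changed genes were recovered, and 5.59% of the calls were false. The changed genes had a fixed effect size and changed in LNCAP alone, so these rates do not carry over to the calls in the data.

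Named members were the 2 largest positive and negative differences per line among members called with 1 sign on both scales, fixed core subunits, the 3 highest and lowest mean levels and the 3 smallest ranges. Outside the members, the regulators and tissue isoforms were named, and from each other list the gene with the largest F. The genes with the widest ranges, and those highest in a line, were chosen after their values were seen. Promoters and positions came from RefSeq tables (GRCh38.p14), where 75 members matched by symbol and 1 by synonym. NDUFA4 was not matched.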

Additional observations from a re-analysis of the deposited data

How the results depend on the processing

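The number of members called in each contrast stayed within 1.5 times under all alternatives (other scalings, pseudocount 0.1, no filter or a filter of 5 TPM, no trend, leaving out each sample), but medians moved with the scale. After rescaling without mitochondrial genes the median member lay at -0.15 in DUCAP, -0.38 in VCAP and 0.20 in PC3. With median-ratio scaling it lay at 0.42 in LNCAP, 0.21 in DUCAP (reversed), -0.27 in VCAP, -0.29 in DU145 and 0.058 in PC3. With quantile normalization it lay at 0.53 in LNCAP, 0.15 in DUCAP (reversed), -0.29 in VCAP, -0.29 in DU145 and -0.063 in PC3 (reversed). With median-ratio scaling PC3 had 31 members higher and 22 lower. Quantile normalization gave 49 higher and 4 lower in LNCAP, 8 and 42 for VCAP, and 16 and 38 for DU145. Shares of all tested genes called were counted only on the deposited and rescaled values. The numbers called under the other alternatives therefore have no such share beside them. Leaving out 1 sample at a time, the DU145 median ranged from -0.18 to 0.16 and changed sign without DUCAP replicate 2, VCAP replicate 1 or DU145 replicate 1. The mean summed level after rescaling was 29132 TPM in LNCAP, 22301 in DUCAP, 19794 in VCAP, 19633 in DU145 and 24043 in PC3, since removing the mitochondrial share raises every value. Repeat numbers did not pair the samples (mean correlation of deviations 0.01 over 10 pairs, -0.19 to 0.25), and a fit with the replicate block called 70 members by the F test and 57, 46, 58, 39 and 45 in LNCAP, DUCAP, VCAP, DU145 and PC3. Of 615 single-gene and motif values under alternatives, 598 were labelled unchanged, 15 lost the call and 1 gained it. Another 1 moved, the YY1 motif share (6.35% before the start). F tests have no direction and motif shares neither call nor direction, so part of these values could not reverse. Each group has 2 repeats, so no sample could be judged an outlier, and the causes of these changes were not tested.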
